A study of Mus musculus with 3 samples.

Results

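Fibril-associated, beaded-filament, network and transmembrane collagens were measured in the neonatal mouse aortic valve through 10 genes: Col12a1, Col14a1, Col16a1, Col19a1, Col22a1, Col6a1, Col6a3, Col8a1, Col13a1 and Col23a1. They were taken by name from the 36167 features of the deposited tables, and all 10 were present. The animals were postnatal day 1 pups of the line B6.Cg-Scx<tm1.1(EGFP)Skom, in which the Scx locus carries EGFP, and zygosity is not given in the sources used here. Flash-frozen aortic valve structures were combined into 3 pools of 22 to 24 aortic roots. All pools carry the same allele, age and handling, so they form 1 group with no untreated or wild-type group beside it, and an animal cannot be followed within a pool. Nuclei were profiled with the gene expression part of the 10x Genomics Multiome assay, and the chromatin part was not analysed here.

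Collagens are built from 3 chains wound into a triple helix, and the large fibrils of a valve are made of types I and III. The fibril-associated collagens (types IX, XII, XIV, XVI, XIX and XXII among them) have interrupted helices and sit on the surface of fibrils or at tissue borders instead of forming fibrils themselves. Type VI, whose chains are encoded by Col6a1, Col6a2 and Col6a3 or its relatives, makes beaded filaments around cells. Type VIII, encoded by Col8a1 and Col8a2, forms open networks in vessel walls and under endothelium. Types XIII and XXIII are transmembrane proteins with a collagenous part outside the cell that can be shed. The leaflets of the aortic valve hold interstitial cells that make this matrix, covered by endothelium and attached to a wall of smooth muscle and fibroblasts.

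The deposited tables held 21140 nuclei with 96513814 unique molecular identifiers (UMIs, each counting 1 captured RNA molecule), and 14073 nuclei had at least 1000 UMIs and at most 5% of UMIs from mitochondrial genes. After removal of likely doublets and of nuclei with fewer than 300 genes, 12861 nuclei remained, 6298, 2993 and 3570 in pools 1 to 3, with median totals of 4303.5, 4777 and 3341 UMIs. Mitochondrial UMIs were above the limit in 28.6%, 41.8% and 14.1% of the deposited nuclei of pools 1 to 3. Among the analysed nuclei 73 barcodes occurred in more than 1 pool. Clustering without any collagen gene gave 26 clusters, of which 22 were named from marker genes and 4 stayed unnamed (16.3% of nuclei). Of the 11 named classes, 9 had at least 20 nuclei in every pool and were compared: smooth muscle-like, valve interstitial-like, fibroblast-like, endothelial-like, lymphatic endothelial-like, cardiomyocyte-like, mesothelial-like, pericyte-like and macrophage-like. The labels describe the tissue as heterogeneous. Levels are in CPM, a gene's UMIs scaled to the UMI total of the nuclei summed. The valve interstitial markers, summed over 7 genes, stood at 10134 CPM in the valve interstitial-like class and at 5242 CPM in the fibroblast-like class. The 8 fibroblast markers summed to 721 CPM and 4000 CPM in these classes. The classes thus share much of the valve interstitial list and are set apart more by the fibroblast list. The 9 cardiomyocyte markers summed to 6254 CPM in macrophage-like, 5342 CPM in pericyte-like and 4260 CPM in smooth muscle-like nuclei, against 721 to 2173 CPM in the other classes apart from cardiomyocyte-like nuclei.

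Within the analysed nuclei the genes were captured to very different depths. Col14a1 had 21488 UMIs and Col23a1 had 12430, whereas Col13a1 had 716 and Col22a1 had 206. Col22a1, a collagen known from junctions of muscle and tendon, reached 10 UMIs in every pool in 0 of the 9 classes. Col19a1 reached that depth in 1 class, the smooth muscle-like one, and Col14a1 and Col6a1 reached it in all 9. Nuclear counts from the 3′ assay depend on each gene's length and introns, so levels are compared between classes for one gene and never between genes. A level is the mean CPM over the 3 pools with its SD. A difference is a log2 difference fitted by edgeR to the summed counts of the 27 combinations of pool and class with pool as a block. It is called where the p adjusted over all 14095 genes tested is under 0.05, and its SE is given. A difference from the other classes is one from the mean of their fitted log2 levels. A class with a low level pulls that mean down, so a gene called higher in a class can be higher still in another. The pools are pooled tissue. With pool as a block, shifts of a pool common to all classes are taken out. The p-values measure the spread between pools that is left, and not that between animals.

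**Figure D1:**
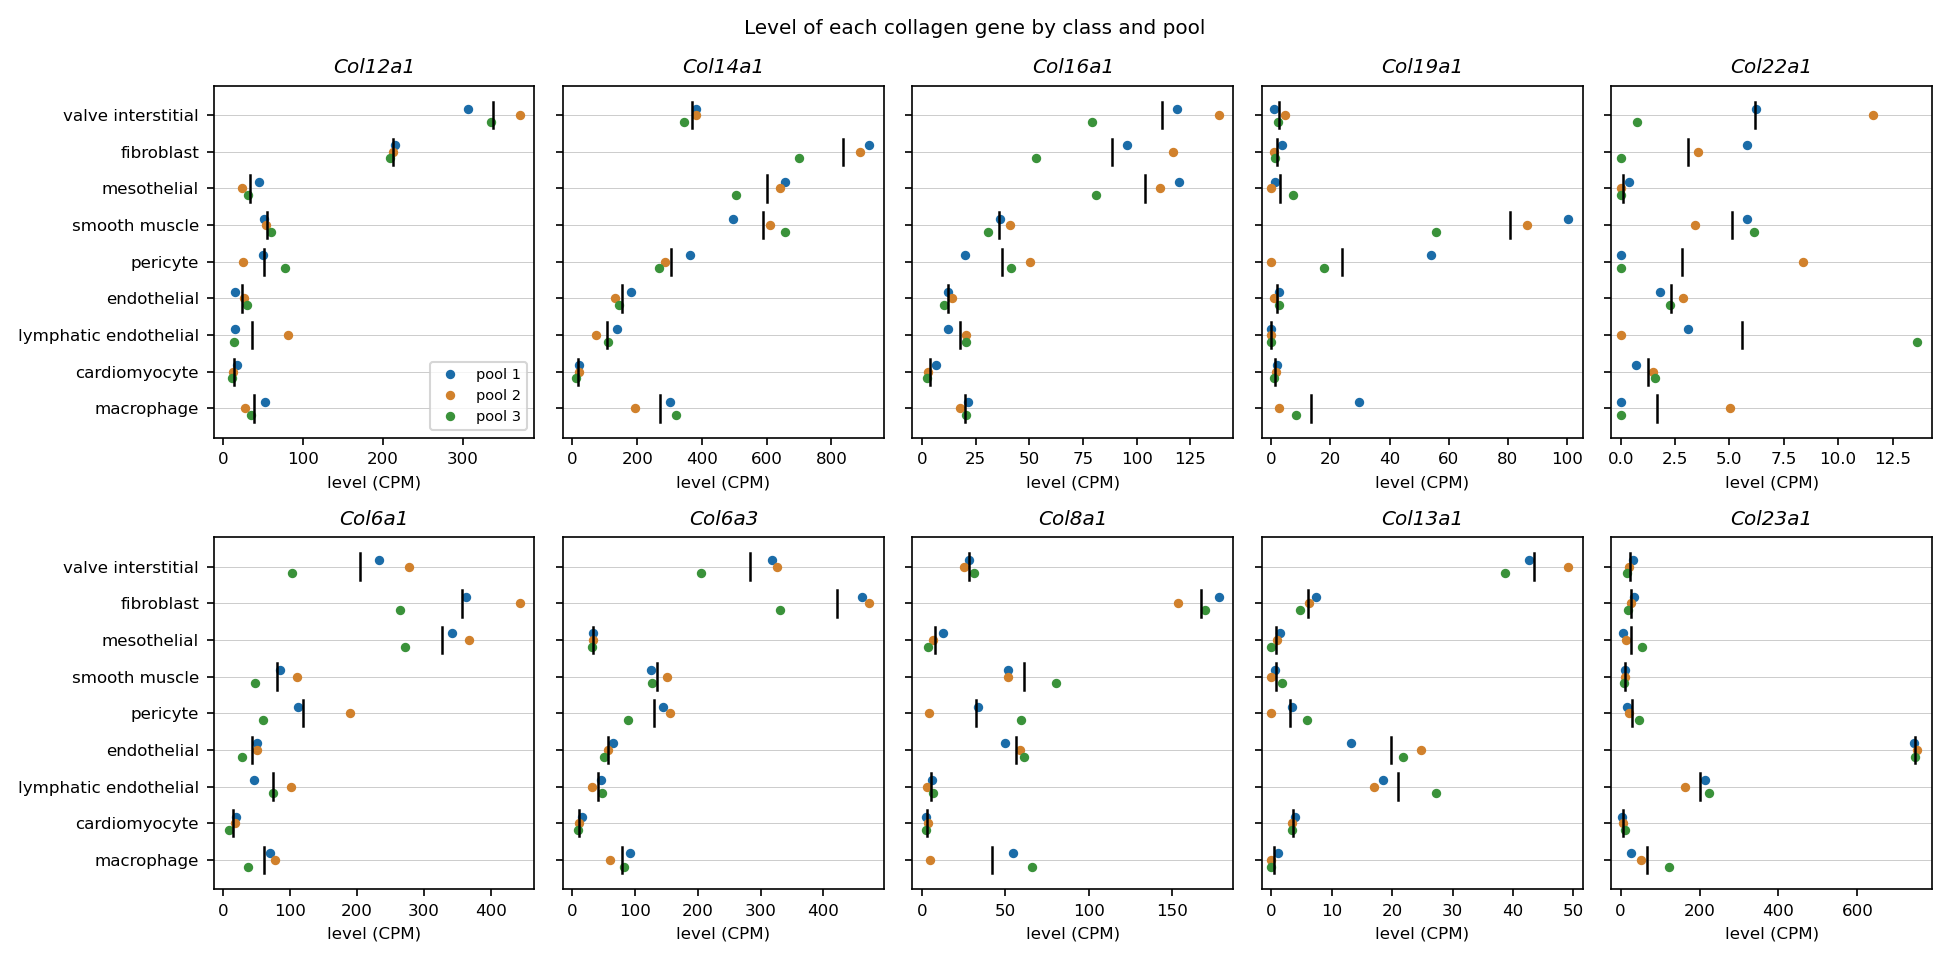
Level of each collagen gene (x axis, CPM, a separate scale for each gene) in 9 classes of nuclei (y axis). Points are the 3 pools and black bars are their means. Col12a1 and Col13a1 stand highest in valve interstitial-like nuclei, Col19a1 in smooth muscle-like nuclei, Col23a1 in endothelial-like nuclei and Col8a1 in fibroblast-like nuclei.

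Sequences upstream of 4 of the genes are shown because each of these genes had its highest level in a different class, endothelial-like for Col23a1, valve interstitial-like for Col13a1, smooth muscle-like for Col19a1 and fibroblast-like for Col8a1. Each is the stretch from 250 to 51 bases before the annotated transcription start, 200 bases printed 5′ to 3′ on the gene's strand, from RefSeq annotation of GRCm38.p6, whereas the authors' counts were made on GRCm39. The windows overlap 0 GENCODE transcripts of their own gene, and transcripts of other genes were not compared. Of the 10 genes, 7 were matched in the RefSeq promoter table, and Col12a1, Col14a1 and Col22a1 were not. Capitals mark exact matches on either strand to TATAAA (the core of a TATA box), to GGGCGG (a GC box, which reads CCGCCC on the other strand) and to CANNTG (an E-box, N being any base).
Col23a1 (chr11:51289670-51289869, plus strand): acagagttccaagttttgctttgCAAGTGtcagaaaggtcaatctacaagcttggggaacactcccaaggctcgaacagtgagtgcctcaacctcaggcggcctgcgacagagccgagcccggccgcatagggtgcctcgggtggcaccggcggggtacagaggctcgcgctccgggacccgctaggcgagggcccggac
Col13a1 (chr10:61979159-61979358, minus strand): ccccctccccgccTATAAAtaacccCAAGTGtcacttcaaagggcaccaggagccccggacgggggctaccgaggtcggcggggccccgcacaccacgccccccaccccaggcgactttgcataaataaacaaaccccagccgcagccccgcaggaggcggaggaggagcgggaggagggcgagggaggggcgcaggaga
Col19a1 (chr1:24587488-24587687, minus strand): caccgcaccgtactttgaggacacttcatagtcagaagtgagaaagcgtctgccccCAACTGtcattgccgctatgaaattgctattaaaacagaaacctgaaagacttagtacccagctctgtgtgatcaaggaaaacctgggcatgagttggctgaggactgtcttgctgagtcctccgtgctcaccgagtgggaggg
Col8a1 (chr16:57754788-57754987, minus strand): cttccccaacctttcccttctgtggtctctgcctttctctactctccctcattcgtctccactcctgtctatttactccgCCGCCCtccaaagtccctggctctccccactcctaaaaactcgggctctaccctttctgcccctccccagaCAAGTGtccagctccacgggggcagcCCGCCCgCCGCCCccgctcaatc
Each of the 4 windows held 1 CANNTG, a match present in 59.0% of 32851 windows of the same length. Col13a1 held 1 TATAAA, 231 bases before the start (9.14% of windows hold 1 or more), and Col8a1 held 3 GGGCGG (24.6% of windows hold 1 or more). Bases closer to the start than 51 were not searched, so a TATA box there would not be seen in any of the genes. Col19a1, highest in smooth muscle-like nuclei, held 0 matches to the CArG box, a smooth muscle promoter element found in 1.16% of windows. A match is a run of letters and not a measured binding site.

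In valve interstitial-like nuclei 7 of the 10 genes were higher than the mean log2 level of the other 8 classes and 0 were lower, beside 19.7% higher and 14.6% lower over all genes tested. Col19a1, with an SE of 19.4, could not be called there. The members' median difference was 1.40, against 0.02 for all genes. Col13a1 (3.62, SE 0.22, adjusted p = 5.2e-15) and Col12a1 (2.95, SE 0.15, adjusted p = 6.1e-17) rose most, followed by Col16a1 (2.08), Col6a3 (2.00), Col22a1 (1.63), Col6a1 (1.16) and Col14a1 (0.67). Col14a1 was called although fibroblast-like, mesothelial-like and smooth muscle-like nuclei held more of it. The calls of Col22a1 and Col14a1 were not kept in all settings. Col22a1 gave an adjusted p of 0.12 without pool 1 and 0.056 with DESeq2, and Col14a1 gave 0.33 (adjusted p = 0.17) with no mitochondrial limit. Col23a1 stood at -0.77 (adjusted p = 0.051) and was called lower in 6 alternatives: with RLE size factors (adjusted p = 0.035), without the filter on low counts (5.4e-05), without pool 1 (-1.33, 0.0019), with no mitochondrial limit (0.014), at clustering resolution 0.5 (0.010) and with names from 3 markers (0.013). In fibroblast-like nuclei 6 genes were higher and 0 lower, beside 16.2% and 11.1% of all genes: Col8a1 (3.01), Col6a3 (2.60), Col12a1 (2.14), Col6a1 (2.06), Col14a1 (1.93) and Col16a1 (1.65).

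Col12a1 encodes type XII collagen, a fibril-associated collagen of tendons, ligaments and other dense tissue under load. Its level in valve interstitial-like nuclei was 307, 372 and 335 CPM in pools 1 to 3 (338 ± 32.5, SD, n = 3). Fibroblast-like nuclei held 215, 213 and 209 CPM (212 ± 3.14). The ranges of these classes lay apart from each other and from all the rest, of which smooth muscle-like nuclei were the highest at 55.1 ± 4.95 CPM and cardiomyocyte-like nuclei the lowest at 13.5 ± 3.64 CPM. Set against fibroblast-like nuclei, the valve interstitial-like class differed by 0.72 (SE 0.21, edgeR adjusted p = 0.013), a call that DESeq2 did not make (0.69, adjusted p = 0.15). Against endothelial-like nuclei (23.5 ± 7.84 CPM) it was 3.94 (SE 0.24).

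The level of Col12a1 was uneven inside the valve interstitial-like class. Its larger cluster, of 950 nuclei led by Ctnna2, Abi3bp and LOC115487471, stood at 486 ± 27.0 CPM. The other cluster, of 482 nuclei led by Rmst, Rnf43 and Adamts19, stood at 105 ± 18.1 CPM, below both fibroblast-like clusters (206 ± 10.7 and 232 ± 20.1 CPM). Col8a1 ran the same way, at 44.2 ± 8.54 and 3.99 ± 3.04 CPM. Col13a1 ran the other way, at 32.2 ± 7.1 CPM in the Ctnna2 cluster and 61.0 ± 5.39 CPM in the Rmst cluster. For Col6a1 the levels were 188 ± 74.2 CPM in the Ctnna2 cluster and 233 ± 122.5 CPM in the Rmst cluster. These SDs take in differences between the pools, and the clusters were not compared within pools. Cluster values are descriptions without a test and cover the 23 clusters in which each pool has 20 nuclei or more, leaving out 3 clusters of 59, 60 and 72 nuclei, named adipocyte-like, endothelial-like and melanocyte-like.

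**Figure D2:**
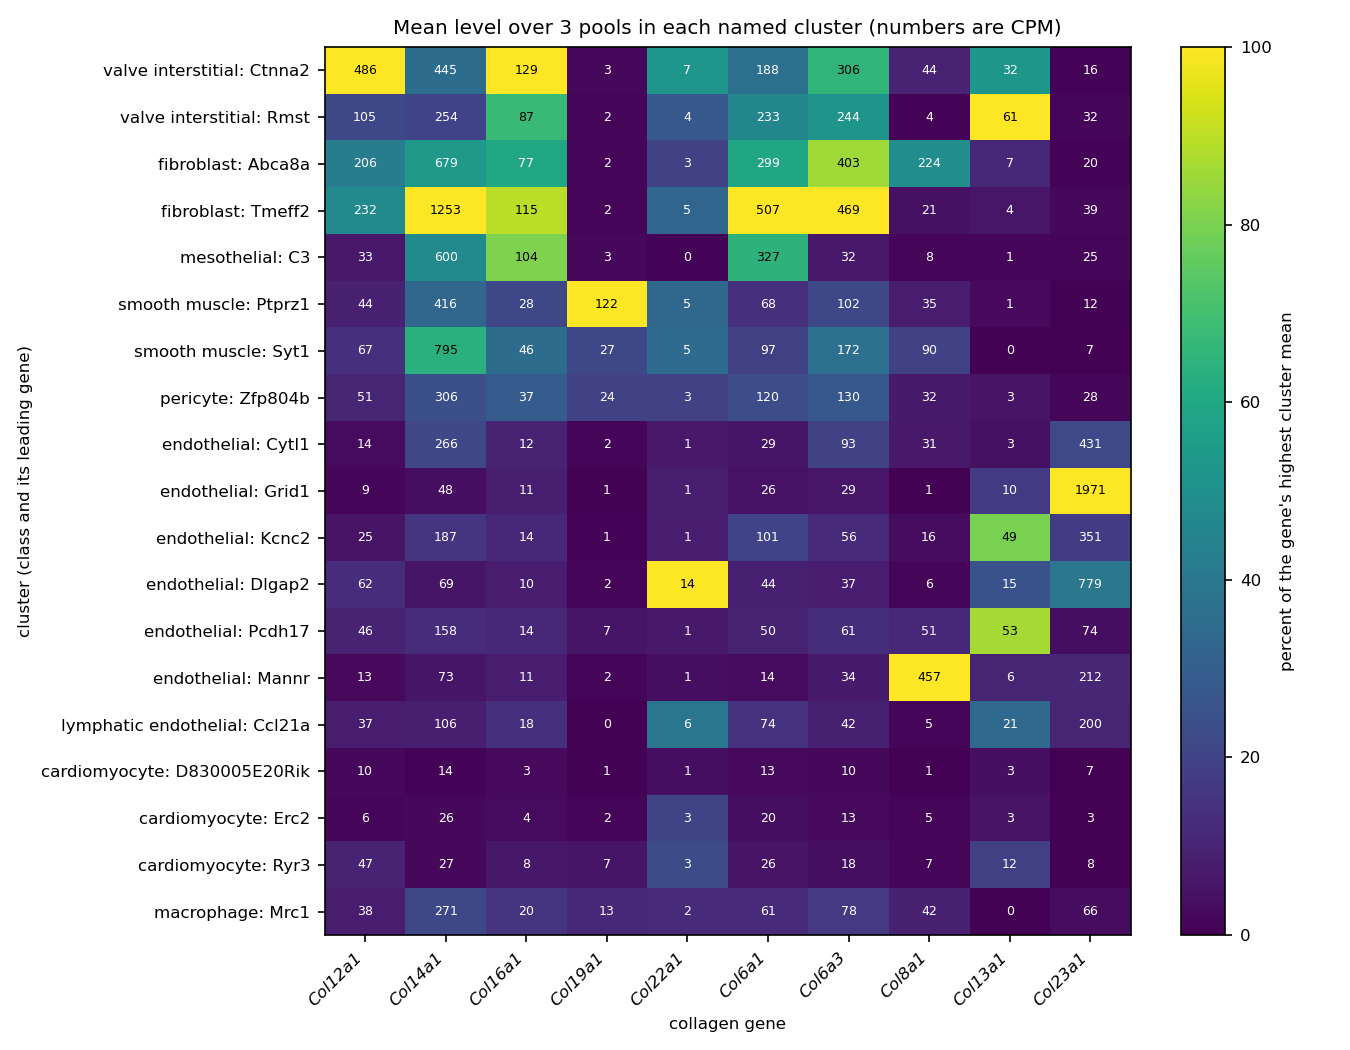
Mean level over 3 pools (numbers in the cells, CPM) of each collagen gene (x axis) in each named cluster of the 9 classes in which each pool has 20 nuclei or more (y axis, with its leading gene). Colour is the percent of that gene's highest cluster. Col12a1 is brightest in one valve interstitial-like cluster (486 CPM) and Col13a1 in the other (61 CPM), and Col23a1, Col8a1 and Col22a1 are each brightest in a different endothelial-like cluster.

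Col14a1 encodes type XIV collagen, the closest relative of type XII, which binds fibrils through decorin and limits their growth. Fibroblast-like nuclei held 917, 889 and 700 CPM (835 ± 118), above every other class. Mesothelial-like nuclei (658, 640 and 504 CPM) and smooth muscle-like nuclei (497, 610 and 658 CPM) followed with overlapping ranges. Valve interstitial-like nuclei stood below these at 382, 382 and 346 CPM (370 ± 21.0). Where Col12a1 was higher in the valve interstitial-like than in the fibroblast-like class, Col14a1 was lower, by a fitted difference of -1.12 (SE 0.17, adjusted p = 4.5e-06). Smooth muscle-like and fibroblast-like nuclei differed by -0.34 (SE 0.17, adjusted p = 0.13), and this passed the threshold in 5 alternatives, with differences from -0.35 to -0.91. Among these were the fit without pool 3 (-0.57, adjusted p = 0.025) and that with doublets kept (-0.91, adjusted p = 1.4e-05).

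Clusters within a class differed in Col14a1 as well. In the fibroblast-like class it stood at 1253 ± 151 CPM in the 268 nuclei led by Tmeff2, Fgf10 and Clec3b and at 679 ± 93.8 CPM in the 689 nuclei led by Abca8a. Among smooth muscle-like nuclei it was 795 ± 54.3 CPM in the Syt1 and Ntrk3 cluster and 416 ± 60.3 CPM in the Ptprz1 and Mylk4 cluster. Cardiomyocyte-like nuclei held 17.4 ± 4.35 CPM, the lowest level, while macrophage-like nuclei held 271 ± 67.3 CPM. In macrophage-like nuclei the 8 macrophage markers summed to 3590 CPM, the 9 cardiomyocyte markers to 6254 CPM and the 7 smooth muscle markers to 1321 CPM, and the part of other cells' RNA in their Col14a1 value was not tested.

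Col16a1 encodes a fibril-associated collagen of connective tissue and muscle walls. It was high in valve interstitial-like (119, 138 and 79.0 CPM), mesothelial-like (120, 111 and 80.9 CPM) and fibroblast-like nuclei (95.3, 117 and 53.1 CPM). These 3 ranges overlapped, and in each of them pool 3 was the lowest. Smooth muscle-like nuclei held 36.1 ± 5.32 CPM and cardiomyocyte-like nuclei 3.89 ± 2.36 CPM. Col16a1 in the valve interstitial-like and fibroblast-like classes differed by 0.38 (SE 0.14, adjusted p = 0.060), which passed without the filter on low counts (adjusted p = 0.049), from 500 UMIs per nucleus (0.37, adjusted p = 0.028) and with names from 3 markers (0.66, adjusted p = 0.00033). The difference between fibroblast-like and mesothelial-like nuclei was -0.50 (SE 0.15, adjusted p = 0.0055), a call lost without pool 1 (-0.33, adjusted p = 0.25), pool 3 (0.050) or the pool block (0.080).

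Col6a1 and Col6a3 encode chains of one type VI molecule, but they did not share a distribution. Col6a1 was high in fibroblast-like (363, 443 and 264 CPM) and in mesothelial-like nuclei (341, 368 and 272 CPM), whose ranges overlapped and whose difference was -0.11 (SE 0.15, adjusted p = 0.56). Col6a3 was high in fibroblast-like nuclei (461, 473 and 331 CPM) and low in mesothelial-like nuclei (32.9, 32.7 and 31.3 CPM). The Col6a3 difference between these classes was 3.49 (SE 0.18, adjusted p = 7.1e-17). The chain that completes the molecule, Col6a2, resembled Col6a1, at 342 ± 95 CPM in fibroblast-like and 328 ± 18 CPM in mesothelial-like nuclei. Col6a6, which encodes a chain that can take the place of the one from Col6a3, stood at 147 ± 22 CPM in mesothelial-like and 496 ± 27 CPM in fibroblast-like nuclei.

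Valve interstitial-like nuclei held both chains at an intermediate level, Col6a1 at 233, 278 and 103 CPM and Col6a3 at 318, 325 and 205 CPM. Against fibroblast-like nuclei Col6a1 differed by -0.80 (SE 0.15, edgeR adjusted p = 0.00011) and Col6a3 by -0.53 (SE 0.14, adjusted p = 0.0045). Both calls were lost with no mitochondrial limit (adjusted p = 0.060 and 0.25) and with cluster names taken from 3 markers only (-0.33, adjusted p = 0.11, and -0.21, adjusted p = 0.29), and that of Col6a1 also without the pool block (adjusted p = 0.11). Against endothelial-like nuclei the differences were 2.23 (SE 0.16) for Col6a1 and 2.33 (SE 0.14) for Col6a3. Cardiomyocyte-like nuclei were the lowest class for both genes, at 15.4 ± 5.51 and 11.2 ± 3.52 CPM.

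Col8a1 encodes a chain of the network-forming type VIII collagen. Fibroblast-like nuclei held 178, 154 and 170 CPM (167 ± 12.2), apart from all other classes. Smooth muscle-like (51.6, 51.6 and 80.2 CPM) and endothelial-like nuclei (50.0, 59.0 and 61.2 CPM) followed with overlapping ranges, and valve interstitial-like nuclei held 28.5, 25.2 and 31.2 CPM. The valve interstitial-like class was thus lower than fibroblast-like nuclei by a fitted difference of -2.53 (SE 0.21, adjusted p = 5.0e-11). Against endothelial-like nuclei its difference was -0.97 (SE 0.22, adjusted p = 0.00049), a call lost with no mitochondrial limit (-0.19, adjusted p = 0.65).

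The class means of Col8a1 covered strong differences between clusters. In 1 endothelial-like cluster of 229 nuclei, led by Mannr, Ptchd1 and Sema3g, it reached 457 ± 158 CPM, above the other 22 clusters. The other endothelial-like clusters ranged from 1.41 ± 1.68 CPM in the one led by Grid1, Enox1 and Emcn to 51.2 ± 19.6 CPM in the one led by Pcdh17, Aplnr and Fabp4. The fibroblast-like class also divided, with 224 ± 33.4 CPM in the Abca8a cluster and 21.4 ± 19.95 CPM in the Tmeff2 cluster, the reverse of the order of Col14a1. Col8a2, which encodes the partner chain, stayed at or below 16.3 ± 7.4 CPM, its level in valve interstitial-like nuclei.

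Col19a1 encodes a fibril-associated collagen found at basement membrane zones of muscle and nerve. Its level in smooth muscle-like nuclei was 100.2, 86.6 and 55.7 CPM (80.9 ± 22.8), and 802 of its 1419 UMIs in the analysed nuclei lay there. Pericyte-like nuclei held 53.9, 0 and 17.8 CPM and macrophage-like nuclei 29.5, 2.52 and 8.23 CPM. The pericyte-like values rest on 19 UMIs and the macrophage-like ones on 31, and pool 1 is the highest in both. The remaining classes held at most 2.83 ± 3.96 CPM, and lymphatic endothelial-like nuclei held 0 UMIs, which allows up to 3.92 CPM at 3 counts over the class. Against fibroblast-like nuclei the smooth muscle-like level was higher by 5.36 (SE 0.48, adjusted p = 1.7e-10). The difference of Col19a1 from the other classes had an SE of 64.5 in cardiomyocyte-like, 57.1 in endothelial-like and 30.9 in fibroblast-like nuclei. It was 94.4 in mesothelial-like and 19.4 in valve interstitial-like nuclei. Col19a1 could not be called in these comparisons, and the counts of genes called there rest on the other members.

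The difference of Col19a1 between pericyte-like and smooth muscle-like nuclei was -1.84 (SE 0.48, adjusted p = 0.0071), and DESeq2 did not call it (adjusted p = 0.073). The edgeR calls of Col19a1 as higher in pericyte-like (adjusted p = 0.0041) and macrophage-like nuclei (adjusted p = 0.0061) than the mean of the other classes were lost without pool 1 (adjusted p = 0.63 and 0.59). The pericyte-like call was also lost from 500 UMIs (adjusted p = 0.19), with no mitochondrial limit (0.56) and with doublets kept (0.28), and the macrophage-like one with DESeq2 (0.077). Within the smooth muscle-like class the gene stood at 122 ± 29.3 CPM in the cluster led by Ptprz1, Mylk4 and Wdr95 and at 26.6 ± 4.95 CPM in the cluster led by Syt1, Ntrk3 and Mtus2, again the reverse of Col14a1. Smooth muscle-like nuclei as a class held 5 of the 10 genes higher than the mean of the other classes (21.7% of all genes) and 2 lower (20.2%). The 5 were Col19a1, Col14a1 (1.55), Col22a1 (1.55), Col8a1 (1.47) and Col6a3 (0.91), and the 2 were Col13a1 (-2.58) and Col23a1 (-2.04). Of these, Col22a1 (adjusted p = 0.19) and Col13a1 (adjusted p = 1.0, macrophage-like nuclei then holding 0 UMIs of it) lost their calls without pool 1, Col6a3 (0.40, adjusted p = 0.069) with no mitochondrial limit and Col8a1 (0.59, adjusted p = 0.058) with doublets kept. Against fibroblast-like nuclei 1 gene was higher (13.4% of all genes) and 7 were lower (15% of all genes), with a median of -1.34 over the members. Among the 7, the Col23a1 call (-1.31, adjusted p = 0.026) was lost under 7 alternatives, with adjusted p from 0.062 to 0.42, and that of Col13a1 without pool 1 (0.077).

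**Figure D3:**
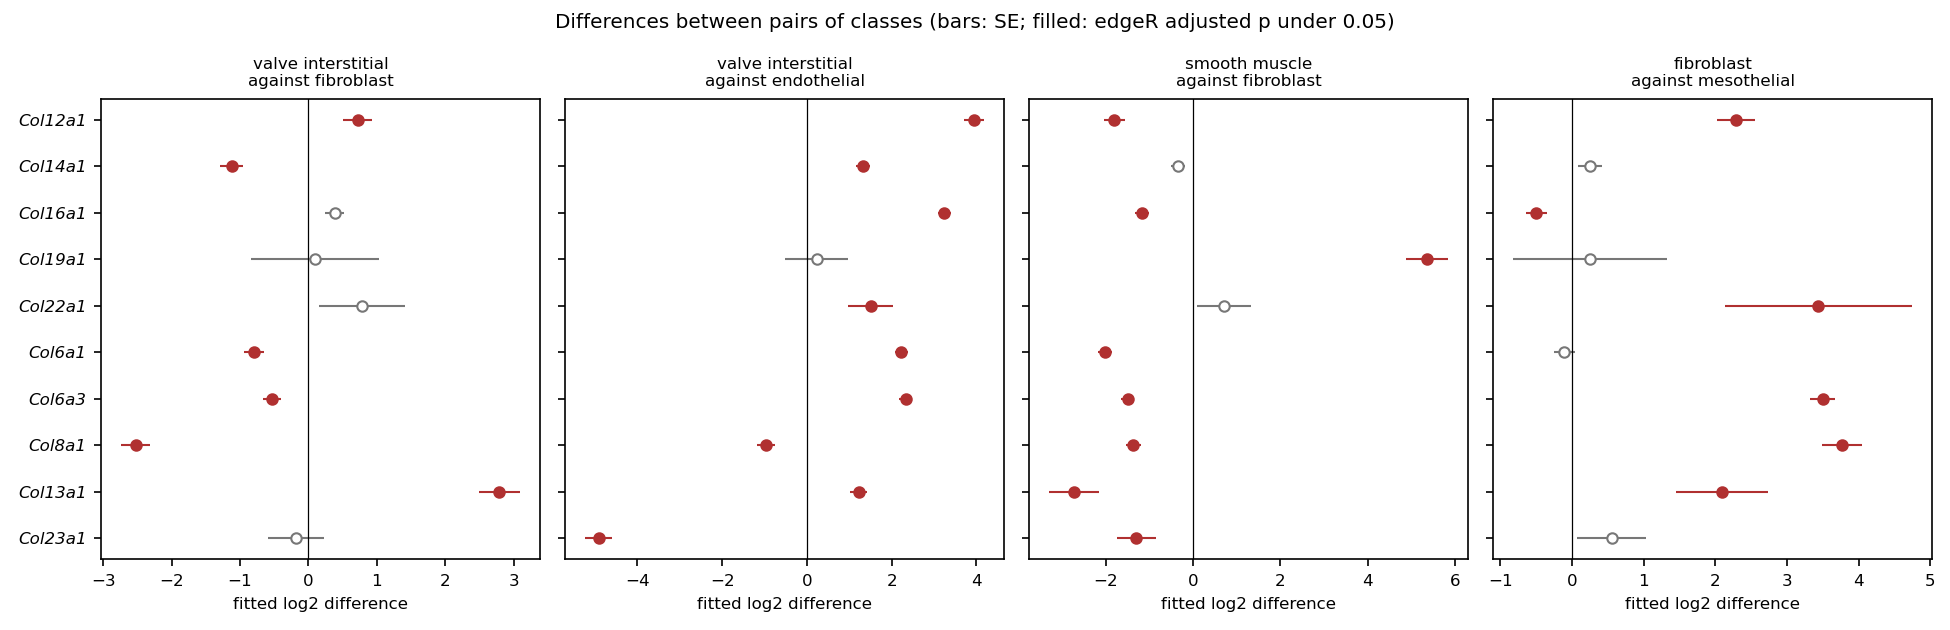
Fitted log2 differences (x axis) of the 10 collagen genes (y axis) between 4 pairs of classes, with SE as bars and filled points where the edgeR adjusted p is under 0.05. Valve interstitial-like nuclei are higher than fibroblast-like nuclei in Col12a1 (0.72) and Col13a1 (2.79) and lower in Col14a1, Col6a1, Col6a3 and Col8a1.

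Col13a1 and Col23a1 encode the transmembrane collagens XIII and XXIII, of which type XIII is known from cell contacts with the matrix and from the neuromuscular junction. Col13a1 was highest in valve interstitial-like nuclei, at 42.7, 49.1 and 38.8 CPM (43.5 ± 5.20). Lymphatic endothelial-like (18.5, 17.0 and 27.3 CPM) and endothelial-like nuclei (13.2, 24.7 and 21.8 CPM) came next with overlapping ranges, and each of the other 6 classes was at or below 6.09 ± 1.33 CPM. The valve interstitial-like level was higher than the fibroblast-like one by 2.79 (SE 0.30, adjusted p = 1.1e-08) and than the endothelial-like one by 1.22 (SE 0.21, adjusted p = 9.7e-06). In the endothelial-like class the transcript lay in 2 clusters, at 48.7 ± 7.22 CPM in the one led by Kcnc2, Fam155a and Wnt9b and at 52.7 ± 19.1 CPM in the one led by Pcdh17, Aplnr and Fabp4. In the other endothelial-like clusters it did not exceed 15.3 ± 12.2 CPM.

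Col23a1 was highest in the endothelial-like class. Endothelial-like nuclei held 743, 752 and 746 CPM (747 ± 4.2), lymphatic endothelial-like nuclei 213, 163 and 225 CPM (200.2 ± 32.9), and 10487 of the 12430 UMIs lay in the endothelial-like class. The ranges of both lay apart from each other and from all other classes, of which macrophage-like nuclei were the highest at 27.3, 50.4 and 121 CPM. Valve interstitial-like nuclei held 22.6 ± 7.76 CPM, a fitted difference from endothelial-like nuclei of -4.91 (SE 0.32, adjusted p = 2.3e-14). Endothelial-like nuclei differed from the mean of the other classes by 4.76 (SE 0.17, adjusted p = 2.3e-21). The 10 endothelial markers summed to 681 CPM in macrophage-like nuclei, to 1050 CPM in mesothelial-like nuclei and to 274 CPM in valve interstitial-like nuclei, and their part in the low Col23a1 values of these classes was not tested.

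Even within the endothelial-like class Col23a1 varied widely. It reached 1971 ± 101 CPM in the cluster led by Grid1, Enox1 and Emcn (727 nuclei), 779 ± 38.2 CPM in the one led by Dlgap2 and Cntnap5a, and 431 ± 8.29 CPM in the one led by Cytl1, Rtl4 and Gkn3. In the Kcnc2 and Wnt9b cluster it was 351 ± 48.4 CPM, in the Mannr cluster 212 ± 93.3 CPM and in the Pcdh17 cluster 73.5 ± 23.3 CPM. The cluster with the most Col23a1 held little Col8a1 and Col14a1 (48.5 ± 0.817 CPM). The cluster with the most Col22a1 was the endothelial-like one led by Dlgap2 and Cntnap5a, at 14.2 ± 5.57 CPM.

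Endothelial-like nuclei held 3 genes above the mean log2 level of the other classes (23.1% of all genes), Col23a1, Col13a1 (2.25) and Col8a1 (1.26), and 5 below (15.9%), Col16a1 (-1.57), Col12a1 (-1.49), Col6a1 (-1.34), Col14a1 (-0.81) and Col6a3 (-0.62). Of the 3, only Col23a1 was highest there, as Col13a1 stood higher in valve interstitial-like nuclei and Col8a1 in fibroblast-like nuclei. In lymphatic endothelial-like nuclei 2 were higher (13% of all genes), Col23a1 (2.55) and Col13a1 (2.23), and 5 were lower (10.7%), namely Col8a1, Col14a1, Col6a3, Col16a1 and Col6a1. Without pool 1 the calls of Col16a1, Col6a1 and Col8a1 were lost (adjusted p = 0.22, 0.52 and 0.079), which left 4 calls. Without the pool block and with doublets kept, those of Col16a1 (adjusted p = 0.098 and 0.12) and Col6a1 (0.30 and 0.053) were lost. Col16a1 was also not called without pool 2 (0.092) or with names from 3 markers (0.060), nor Col8a1 from 500 UMIs (0.056). The median of all genes was -0.11 in that comparison, the largest shift of any class.

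In cardiomyocyte-like nuclei 0 genes were higher (33.8% of all genes) and 7 were lower (33.1%), led by Col14a1 (-3.85, SE 0.18) and Col8a1 (-3.08, SE 0.45), while Col13a1 (0.06, SE 0.23) and Col22a1 were not called. Col19a1, with an SE of 64.5, could not be called in this comparison. In mesothelial-like nuclei 3 were higher (32.6% of all genes), Col16a1 (2.21), Col6a1 (2.18) and Col14a1 (1.66). There 5 were lower (26%), namely Col22a1 (-3.12, from 1 UMI in the class), Col13a1 (-1.87), Col6a3 (-1.33), Col8a1 (-1.22) and Col23a1 (-1.19). Of these 5, the calls of Col22a1, Col13a1 and Col23a1 were lost without pool 1 (adjusted p = 0.096, 1.0 and 0.33), that of Col13a1 also without pool 3 (0.057) and that of Col23a1 with doublets kept (0.12). Macrophage-like nuclei held 1 higher (16.6% of all genes) and 3 lower (10.6%), Col13a1, Col6a1 and Col16a1, of which Col13a1 was not called without pool 3 (adjusted p = 0.070) or with doublets kept (0.11) and Col16a1 not without pool 1 (0.080), pool 2 (0.12) or the pool block (0.058). Col8a1 was called higher there in 5 alternatives (adjusted p from 0.0013 to 0.039) and Col12a1 lower in 3 (0.024 to 0.037). Pericyte-like nuclei held 2 higher (8.79% of all genes), Col19a1 and Col6a3 (0.69), and 0 lower (4.33%), with 0 calls without pool 1 and 1 without pool 2.

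Pairs of classes were also compared directly. Valve interstitial-like against fibroblast-like nuclei gave 2 higher (8.76% of all genes), Col12a1 and Col13a1, and 4 lower (8.3%). Against endothelial-like nuclei 7 were higher (19.8%) and 2 lower (20.7%), the latter being Col23a1 and Col8a1, and the Col22a1 call was lost without pool 1 (adjusted p = 0.24) and with DESeq2 (0.16). Fibroblast-like against mesothelial-like nuclei gave 5 higher (23.7% of all genes) and 1 lower (28.5%), with 3 calls in all without pool 1. The calls lost were those of Col16a1, Col13a1 (adjusted p = 0.061) and Col22a1 (0.27). Besides Col6a3 the 5 included Col8a1 (3.76, SE 0.28) and Col12a1 (2.29, SE 0.26). Pericyte-like against smooth muscle-like nuclei gave 0 higher (7.08% of all genes) and 2 lower (6.61%), Col19a1 and Col14a1 (-1.12, SE 0.20), and the Col14a1 difference was 0.03 when nuclei from 500 UMIs were admitted and 0.01 with no mitochondrial limit.

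Detection in single nuclei was compared after thinning each nucleus to 1000 UMIs, which left out no nucleus. Col23a1 was then seen in 37.4 ± 1.02% of endothelial-like nuclei (62.1 ± 5.22% before thinning) and in 0.466 ± 0.232% of cardiomyocyte-like nuclei, with median totals of 4438 and 5438 UMIs. Cardiomyocyte-like nuclei are the lower of the classes planned as background. For Col12a1 the shares were 21.7 ± 1.1% in valve interstitial-like nuclei (41.6 ± 7.5% before thinning, median total 3612 UMIs) and 1.51 ± 0.534% in cardiomyocyte-like nuclei. Both genes thus stood far above the cardiomyocyte-like share. Macrophage-like nuclei, also planned as background, held higher levels than cardiomyocyte-like nuclei. These were 66.3 against 6.46 CPM for Col23a1, 38.3 against 13.5 CPM for Col12a1 and 271 against 17.4 CPM for Col14a1. Col14a1 was seen in 46.3 ± 4.6% of fibroblast-like nuclei (76.3 ± 6.8% before thinning, median total 3656 UMIs) and 1.82 ± 0.579% of cardiomyocyte-like ones. Col19a1 was seen in 5.97 ± 1.0% of smooth muscle-like nuclei (13.5 ± 4.0% before thinning, median total 3303 UMIs) and 0.0347 ± 0.060% of cardiomyocyte-like ones. Col22a1 did not exceed 0.775 ± 1.3% in any class, its share in pericyte-like nuclei, beside 0.147 ± 0.13% in cardiomyocyte-like nuclei.

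The pools differed in some of these genes across classes. Col6a1 was lowest in pool 3 in 8 of 9 classes, and Col16a1 in 6 of 9. In the 6 named classes with most nuclei, both genes were lowest in pool 3 in 6 of 6, as was Col6a2, a pattern shown by 9.63% of the 7199 genes with at least 10 CPM in all 6. Col16a1, at 3.89 CPM in cardiomyocyte-like nuclei, is not one of those genes. The level in pool 3 divided by the mean of the other pools had a median over these 6 classes of 0.521 for Col6a1, 0.659 for Col16a1, 0.738 for Col6a2 and 0.773 for Col6a3, against 0.992 for those 7199 genes. For Col12a1 it was 0.981 and for Col14a1 0.841. Pool 3 also had the lowest median mitochondrial share among analysed nuclei, 0.462% against 0.696% and 1.05% in pools 1 and 2, and the part of this in the Col6a1 level was not tested. This comparison was made after the levels were seen.

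**Figure D4:**
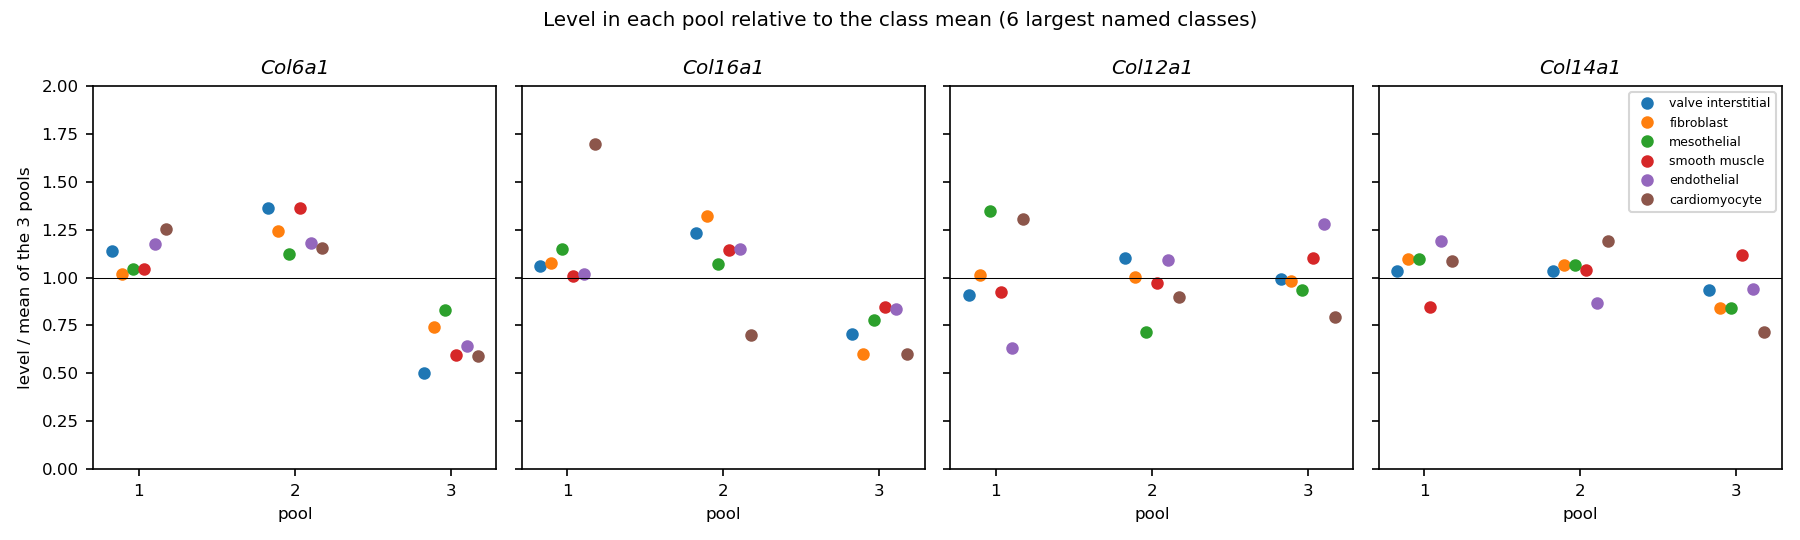
Level in each pool (x axis) divided by the mean of the 3 pools (y axis) in 6 classes, shown by colour, for Col6a1, Col16a1, Col12a1 and Col14a1. For Col6a1 and Col16a1 the pool 3 point of each of the 6 classes lies below the points of the same class in the other pools, and for Col12a1 the order of the pools differs between classes.

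Across the 27 combinations of pool and class, the most similar genes were found by the Pearson correlation of log2 CPM, a description over sums that share 3 pools. Col6a1 was most like Col6a2 (r = 0.950), Col3a1 (0.949) and Col1a2 (0.940), and Col16a1 was most like Thbs2 (0.938), Col3a1 (0.937) and Col1a2 (0.931). Col3a1 and Col1a2 encode chains of the fibril-forming types III and I. Col6a3 resembled Dnm3os (0.934), Ptn (0.933) and Postn (0.929), the last of which encodes periostin, a matrix protein and one of the valve interstitial markers used. Col12a1 resembled Dnm1 (0.871), Scara3 (0.864) and Col11a1 (0.861), the last a chain of a minor fibrillar collagen. Col14a1 resembled Gli2 (0.950), Cdr2 (0.931) and Rrbp1 (0.929). Col23a1 resembled Pecam1 (0.947), Emcn (0.945) and St6galnac3 (0.938), of which the former pair encode endothelial surface proteins used as markers. Col8a1 (Gm30524, 0.858), Col19a1 (Gm39019, 0.834) and Col13a1 (L3mbtl3, 0.789) had no gene as close. Among the 10 genes themselves the closest pair was Col16a1 and Col6a1 (r = 0.925), while Col12a1 and Col14a1 stood at 0.575 and Col6a1 and Col6a3 at 0.608.

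Other genes of the same collagen subfamilies were listed, and 9 of the 14 present were tested. In the valve interstitial-like class 7 of these 9 were higher than the mean of the rest and 1 was lower, beside 19.7% and 14.6% of all genes, with a median of 1.57 against 0.02 for all genes. The largest were chains of type IX, a fibril-associated collagen of cartilage: Col9a1 (5.10, SE 0.23, level 86.5 ± 10 CPM) and Col9a3 (5.03, SE 0.18, level 65.9 ± 23 CPM). Both were also higher than in fibroblast-like nuclei, by 3.39 (SE 0.31) and 5.75 (SE 0.35). Col26a1 was the one lower (-1.84, SE 0.58), with 35.5 ± 11 CPM in fibroblast-like nuclei and 1.13 ± 1.0 CPM in valve interstitial-like nuclei. Col25a1, which encodes another transmembrane collagen, stood at 121 ± 29 CPM in endothelial-like, 117 ± 7.8 CPM in pericyte-like and 45.8 ± 8.8 CPM in valve interstitial-like nuclei.

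Of 10 collagen receptors, 7 were higher and 1 was lower in the valve interstitial-like class than the mean of the rest (median 0.84), beside the same 19.7% and 14.6% of all genes. Itga10 and Itga11, which encode collagen-binding integrin chains, were higher by 3.00 (SE 0.17) and 2.26 (SE 0.25), and Itga10 exceeded the fibroblast-like level by 3.27 (SE 0.28). Ddr2, a receptor tyrosine kinase for fibrillar collagen, was higher than the mean of the other classes by 1.55 (SE 0.11) but lower than in fibroblast-like nuclei (-0.59, SE 0.14). Antxr1, which encodes a receptor for type VI collagen, was highest in smooth muscle-like nuclei at 1315 ± 111 CPM, beside 904 ± 72.5 CPM in fibroblast-like nuclei. Cspg4, which encodes another binder of type VI collagen, was highest in pericyte-like nuclei at 313 ± 113 CPM.

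Of 9 matrix proteins that bind collagens VI, XII or XIV, 8 were tested. In valve interstitial-like nuclei 7 were higher and 1 was lower (median 1.67), again beside 19.7% and 14.6% of all genes. Matn4 (4.19, SE 0.23) and Fmod (3.14, SE 0.17), which encode a matrilin and fibromodulin, had the largest differences there. Dcn, which encodes the small proteoglycan decorin, followed (2.63, SE 0.11), but its difference from fibroblast-like nuclei was 0.30 (SE 0.18, adjusted p = 0.31). In mesothelial-like nuclei the differences from the other classes were 4.95 (SE 0.14) for Fmod and 3.39 (SE 0.11) for Dcn. Tnxb, which encodes the fibril-binding tenascin-X, was the one lower (-0.83, SE 0.16). It stood at 425 ± 51 CPM in fibroblast-like and 24.1 ± 3.6 CPM in valve interstitial-like nuclei, a difference of -4.06 (SE 0.15, adjusted p = 4.4e-19).

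EGFP, the reporter at the Scx locus, was counted at 29.9 ± 8.41 CPM in the valve interstitial-like class and 11.8 ± 1.26 CPM in the endothelial-like class, from 170 and 172 UMIs. The other 7 classes held 6.56 ± 2.84 CPM or less, with 2.64 ± 0.713 CPM in cardiomyocyte-like nuclei and 0 UMIs in lymphatic endothelial-like nuclei, which allows up to 3.92 CPM. Scx encodes scleraxis, a transcription factor of tendons and valves. Valve interstitial-like nuclei with an EGFP UMI were each matched to 1 without from the same pool with the nearest total, giving 74, 48 and 27 pairs. Col12a1 stood at 337, 542 and 655 CPM with EGFP and at 221, 198 and 329 CPM without, higher in 3 of 3 pools. Its fitted difference was 1.01 (SE 0.20, edgeR adjusted p = 0.061), which did not pass the threshold. In all, 0 of the 5 collagen genes tested were called (0.101% of all genes), with 4 at an unadjusted p under 0.05, beside 402 of all 4934 genes tested. Under 0.05 were 2 of 5 without the pool block (272 of 4934 genes) and 2 of 6 with nuclei matched within clusters (283 of 4936). Leaving out pool 1 gave 1 of 5 (284 of 3959), pool 2 gave 3 of 5 (306 of 4929) and pool 3 gave 4 of 6 (437 of 5951), and 0 collagen genes were called in each of these 5 settings. DESeq2 called 0 and put 1 under 0.05, beside 83 of 4934 genes. Without the filter on low counts Col12a1 was called (adjusted p = 0.0032).

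The valve interstitial-like clusters differ in their share of nuclei with an EGFP UMI, 13.4%, 14.1% and 8.10% in the Ctnna2 cluster against 8.56%, 11.8% and 2.53% in the Rmst cluster. With partners drawn from the same cluster as well, a setting added after the values were seen, the Col12a1 difference was 0.32 (SE 0.18, adjusted p = 0.88). Its levels without EGFP were then 323, 384 and 505 CPM.

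In nuclei outside the named classes the collagens were also present. The cluster led by the haemoglobin genes Hbb-bt, Hbb-bs and Hba-a2 (605 nuclei) held Col6a1 at 241 ± 112 CPM and Col6a3 at 191 ± 97.7 CPM. The cluster led by Clca3a2 and Pi15 (578 nuclei), whose markers were split evenly between smooth muscle and pericyte, held Col14a1 at 401 ± 126 CPM and Col8a1 at 2.10 ± 1.94 CPM. The cluster led by the mitosis genes Neil3, Diaph3 and Knl1 (560 nuclei) held Col12a1 at 137 ± 32.8 CPM and Col8a1 at 98.5 ± 14.7 CPM, values between those of the named classes. The cluster led by Mylk4 and Kcnab1 (354 nuclei) held Col19a1 at 48.9 ± 18.8 CPM.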

How the data were processed

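The authors deposited raw UMI counts per gene and nucleus for 3 pools, with a Cell Ranger 7.1.0 header per the file headers. The submitters' processing notes name Cell Ranger 7.0.1 and 7.1.0 and the build GRCm39. Whether intronic reads were counted is not given in the sources used here. The smallest deposited total is 500 UMIs, so empty droplets were not used. Nuclei were kept from 1000 UMIs and 300 genes upward where the 13 mitochondrial genes took up to 5% of UMIs.

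The automatic Scrublet threshold marked 0, 0 and 1 nuclei and was replaced by the highest scores at 0.8% per 1000 nuclei (895, 283 and 170 of the deposited nuclei marked, some of which also failed the limits above). scanpy 1.11.5 and leidenalg 0.10.2 (2000 variable genes, 30 components, 15 neighbours, resolution 1) clustered the nuclei without 44 collagen genes, the listed receptors and binding proteins, mitochondrial, sex-linked and EGFP features.

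Clusters were named from 21 lists of markers. A marker passed where 10% of the cluster's nuclei or more had it and it was 2-fold or more above the other nuclei (pseudocount 5 CPM). A name needed 3 passing markers, 40% of its list passing, and no other list with as many. Clusters low in UMIs with none of their own markers among their top 10 genes stayed unnamed. This rule was the third version tried, set after the clusters and their leading genes, some of which are collagens studied here, had been seen and before levels were compared. Naming from 3 markers alone is an alternative, and a version asking for a larger share was not carried further.

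Counts were summed per pool and class and tested with edgeR 4.0.16 in R 4.3.3 (quasi-likelihood, TMM, filterByExpr, pool as a block because the classes of a pool come from 1 library), with Benjamini-Hochberg adjustment over all genes and a threshold of 0.05. DESeq2 1.42.0 was an alternative. On simulated data the fit of valve interstitial-like nuclei against the other classes recovered 86.5% of 2-fold and 100% of 4-fold changes (13055 and 13126 genes tested), and the EGFP fit 13% and 92.5% (4955 and 4981 genes). Log2 CPM for correlations used a prior count of 1. All 10 genes, the listed genes, the 3 genes most like each member with at least 3 classes above 10 CPM, and the 3 leading genes of a cluster could be named. The members and lists were chosen with earlier results of these data known. One leading gene of a cluster is not reported here. Limits for a count of 0 cover counting error only.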

Additional observations from a re-analysis of the deposited data

How the results depend on the processing

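Of 187 counts of collagen genes called under the alternatives, 173 stayed within 1.5 times the main count. The exceptions follow. Leaving out pools 1 to 3 in turn gave 4 to 7 calls in lymphatic endothelial-like nuclei, 0 to 2 in pericyte-like nuclei and 3 to 6 between fibroblast-like and mesothelial-like nuclei. Macrophage-like nuclei had 7 calls without the filter on low counts. Pericyte-like nuclei had 5 calls from 500 UMIs and at resolution 0.5, and 1 with doublets kept and 1 without the lymphatic endothelial-like and macrophage-like classes. Pericyte-like against smooth muscle-like nuclei had 1 with DESeq2, 5 from 500 UMIs, 4 with no mitochondrial limit and 5 at resolution 0.5. The EGFP comparison had 1 without the filter.

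Of 1229 values of single genes, which were recomputed where called or at least 2 SE from 0, 59 lost and 29 gained a call, and 7 turned in sign. These were Col19a1 in lymphatic endothelial-like nuclei with doublets kept (0.45), Col16a1 in smooth muscle-like nuclei from 500 UMIs (-0.0612), with no mitochondrial limit (-0.18) and with doublets kept (-0.0192), Col14a1 between pericyte-like and smooth muscle-like nuclei from 500 UMIs (0.0267) and with no mitochondrial limit (0.00848), and Col8a1 in that pair at resolution 0.5 (0.10). The cause was not tested. Of 720 levels in the classes recomputed under the alternatives, 71 moved by more than the SD over pools. Of 180 shares of nuclei with a UMI, recomputed without thinning and with thinning to 2000 UMIs, 148 moved by more than the SD from the share at 1000 UMIs.

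Without the pool as replicate block, 6 of 99 single-gene values lost their call, among them Col6a1 in valve interstitial-like against fibroblast-like nuclei, and no count moved by over 1.5 times. Alternatives added after the data were seen were the naming from 3 markers, the fit without the lymphatic endothelial-like and macrophage-like classes, and matching within clusters. Totals were low for Col22a1, for Col19a1 outside smooth muscle-like nuclei and in the lymphatic endothelial-like (119 nuclei) and pericyte-like (135 nuclei) classes.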
